A study of Caenorhabditis elegans with 12 samples.

Results

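The gst genes encode glutathione S-transferases, enzymes that join the tripeptide glutathione to reactive molecules. They were taken here as every gene of the array whose symbol is gst followed by a number, so genes named gsto or gstk are not included. Membership rests on the symbol alone, and the enzyme class of each member was not checked. The platform annotation gave 40 such genes of 17118 genes named by a single symbol. They are read by 41 of 22548 non-control probe sets, and gst-40, with 2 probe sets, was read by the brighter. RefSeq lists 44 gst genes for the assembly WBcel235, and gst-25, gst-34, gst-35 and gst-37 were not analysed here. RNA of Caenorhabditis elegans larvae in the middle or late part of L4, the stage before adulthood, was hybridised to 12 Affymetrix arrays. There were 3 arrays each of hrg-2 mutants with 20 µM heme, wildtype with 20 µM heme, hrg-2 mutants with 4 µM heme and wildtype with 4 µM heme. The labels give the genotype as mutant or wildtype without naming the allele or the strain. As 0 probe sets are named for hrg-2 here, the labels were not checked against the targeted gene. All values are the deposited log2 expression values, and every difference is a log2 difference, mutant minus wildtype or 20 µM minus 4 µM.

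Glutathione S-transferases detoxify electrophiles such as the lipid peroxidation product 4-hydroxynonenal, and some also bind heme and other hydrophobic ligands without changing them. In the worm many of them are made in the intestine and the hypodermis, and the transcription factor SKN-1, the counterpart of mammalian Nrf2, induces several when the animal meets oxidants or electrophiles. C. elegans cannot make heme and must take it up, and free heme promotes oxidation. HRG-2, the product of the mutated gene, is a hypodermal membrane protein of heme use whose sequence carries domains like those of glutathione S-transferases. The comparisons address how its mutation, and how the heme supply, alter expression in the animal. The RNA came from whole animals, as far as the labels say, so fewer cells of a type and less RNA per cell cannot be told apart. The larvae were in the middle or late part of L4, and whether arrays or groups differed in stage within it was not tested.

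The members covered most of the range of the array. The brightest probe sets were those of gst-27, with a mean of 11.70 over the 12 arrays, gst-1 (11.10), gst-7 (10.46) and gst-26 (9.65). The dimmest were those of gst-30 (3.52), gst-23 (3.77), gst-11 (3.86) and gst-14 (4.20), against lowest values on the arrays of 1.76 to 1.92. These brightness values rank probe sets, not amounts of RNA, since probe sets bind with different strength. Gst-27 stood at percentile 98.37 of all probe sets and gst-30 at percentile 21.72. Of the 40 members 24 lay above the median mean of all probe sets (5.88) and 16 below it. The widest spread over the 12 arrays was that of gst-41 (SD 1.46) and the smallest was that of gst-30 (SD 0.18). The probe sets of gst-9, gst-16, gst-19, gst-20, gst-27, gst-33 and gst-41 carry the suffix _s_at, which on these arrays marks probes shared by more than 1 transcript, so a near-identical relative may add to their signal.

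Many of the members are neighbours in the genome, by the order of genes in the RefSeq table. Chromosome II holds 23 of the 40. A run of 9 starts with gst-20 and goes on with gst-24, gst-15, gst-14, gst-12, gst-16, gst-19, gst-17 and gst-18, with 0 other protein-coding genes between them, and the annotated bodies of gst-17 and gst-18 overlap. Another run starts with gst-26 and gst-27 and goes on with gst-28, gst-29, gst-39, gst-31 and gst-32. Gst-6, gst-7, gst-8, gst-9 and gst-30 lie near each other on the same chromosome, and gst-3, gst-2 and gst-4 are neighbours on chromosome IV. The other measured members stand alone on chromosomes I to V and X.

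**Figure D1:**
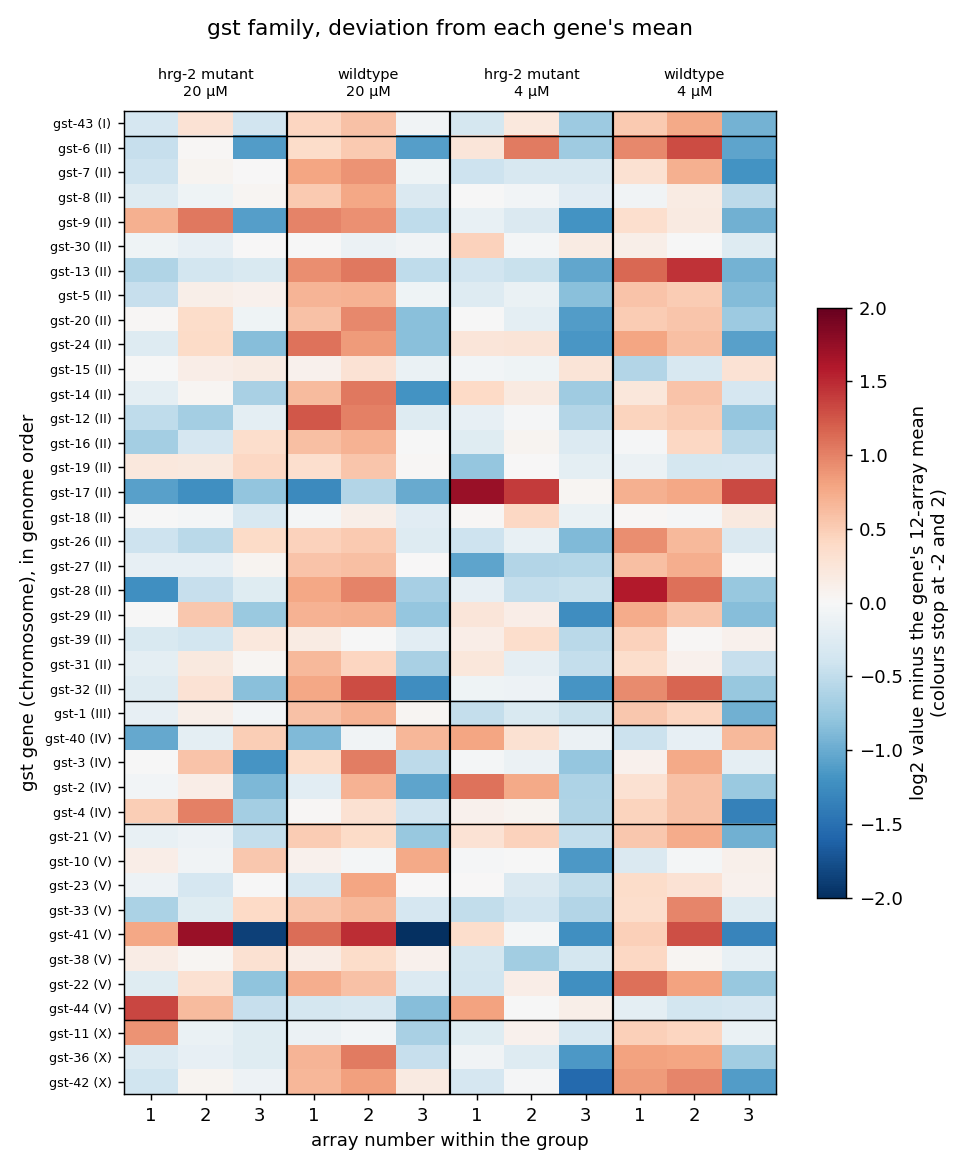
Colour map of the 40 gst genes (rows, in genome order with the chromosome in brackets) on the 12 arrays (columns, grouped by genotype and heme), where the colour is the log2 value minus the gene's mean over the 12 arrays. Wildtype arrays numbered 1 and 2 are mostly red, most arrays numbered 3 are mostly blue except in mutants at 20 µM, and gst-17 is blue on all 6 arrays at 20 µM.

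Arrays carrying the number 3 read differently from their group's arrays 1 and 2, and this bears on every comparison below. Relative to the mean of arrays 1 and 2 of its group, the median member lay at 0.05 on array 3 of hrg-2 mutants at 20 µM, -0.85 in wildtype at 20 µM, -0.65 in hrg-2 mutants at 4 µM and -1.13 in wildtype at 4 µM. The members lower on array 3 numbered 19, 38, 35 and 35 of 40 in those groups, and 18 members were lower there in all 4 groups (22.2% of all probe sets were). Higher there in all 4 groups were 0 members and 14.2% of all probe sets. The deepest such shifts belonged to gst-41, gst-32, gst-6, gst-24 and gst-9, with means over the groups of -2.69, -1.50, -1.49, -1.48 and -1.41. Germline genes lay the other way: of 34 measured sperm genes 32 were higher on array 3 in all 4 groups, with a median shift of 2.61, and of 11 oocyte and eggshell genes 9 were, with a median of 1.65. Of the other marker lists, 11 intestinal genes shifted by a median of -0.30 and 11 hypodermal genes by -0.18. The 9 body muscle genes shifted by -0.11 and the 10 neuronal genes by -0.61. The 4 measured yolk genes, also intestinal, shifted by 2.02 over the groups. By group they shifted by 5.47 and 3.78 in hrg-2 mutants at 4 and 20 µM, and by -1.79 and 0.66 in wildtype. The part of these lists, and of any difference in stage between arrays, in the values below was not tested. Each comparison is therefore given over all arrays and over the arrays numbered 1 and 2 alone, which leaves 2 arrays in a group.

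At 4 µM heme most gst genes lay lower in hrg-2 mutants than in wildtype, though none passed the test over all probe sets. The difference was negative for 32 of 40 members, against 46.9% of all probe sets, and positive for 8, against 53.1%, with a median of -0.36 for the members and 0.03 for all probe sets. Of the members 0 had an adjusted p under 0.05 by limma, as did 0.00887% of probe sets. At an unadjusted p under 0.05 there were 4 members, all lower (10% of members, 3.64% of probe sets), and 0 higher (2.47% of probe sets). With the array number as a block there were 9 lower (22.5%, against 7.22%) and still 0 past the adjusted threshold. Centring each array on its median raises every difference at 4 µM by 0.13 and leaves 28 members lower, with a median of -0.23. The median of all probe sets rises by the same 0.13. The uncentred share of 46.9% therefore does not apply to the 28, and the centred share is not given here. Among the tissue marker lists at 4 µM, the mutants relative to wildtype had medians of -0.64 over 34 sperm genes (25 lower), 0.42 over 11 oocyte and eggshell genes (1 lower), -1.40 over 4 yolk genes (4 lower), -0.07 over 11 intestinal genes (7 lower), -0.05 over 11 hypodermal genes (6 lower), -0.29 over 9 body muscle genes (7 lower) and -0.00079 over 10 neuronal genes (6 lower), with 0 genes called in any list over all arrays. The per-array median of the yolk genes ran from 4.93 to 10.9 over the mutant arrays and from 7.59 to 9.96 over the wildtype arrays. That of the sperm genes ran from 7.12 to 11.9 and from 8.03 to 10.9, and that of the intestinal genes from 10.2 to 10.9 and from 9.70 to 11.1. On arrays 1 and 2 alone the same lists did hold calls at 4 µM, all lower in mutants, in 14 of 34 sperm genes (median -1.37), 4 of 4 yolk genes (-3.83), 3 of 11 oocyte and eggshell genes (-0.30), 2 of 11 intestinal genes (-0.42), 2 of 10 neuronal genes (0.14) and 1 of 9 body muscle genes (-0.46), and in 0 of 11 hypodermal genes (-0.23). What part these tissues have in the family's values was not tested.

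The member of smallest p was gst-27, which was also the brightest of the family. It read 10.64, 11.11 and 11.13 in hrg-2 mutants at 4 µM, on arrays 1, 2 and 3 in that order here and below, against 12.30, 12.43 and 11.70 in wildtype at 4 µM. All 3 mutant arrays lay below all 3 wildtype arrays, and the difference was -1.18 ± 0.25 (SE), a level 2.27-fold lower, with an unadjusted p of 0.000778 and an adjusted p of 0.791 by limma. Its neighbour gst-26 read 9.23, 9.50 and 8.77 in mutants, against 10.58, 10.29 and 9.36 in wildtype, a difference of -0.91 ± 0.38 (SE). The groups overlapped, because wildtype array 3 lay below mutant array 2, but each mutant array was below the wildtype array of its own number. Gst-28, the next gene of the run, read 6.11, 5.79 and 5.83 in mutants, against 7.86, 7.37 and 5.51 in wildtype, a level 2.01-fold lower with an SE of 0.60 on the log2 scale. Here the wildtype arrays 1 and 2 were high and array 3 was below all mutant arrays.

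Gst-38 is one of the genes commonly used to read out SKN-1 activity. It read 5.01, 4.67 and 5.01 in mutants, against 5.78, 5.39 and 5.22 in wildtype, a difference of -0.57 ± 0.19 (SE) with an unadjusted p of 0.014. Gst-33 read 5.13, 5.23 and 5.02 in mutants, against 5.96, 6.59 and 5.36 in wildtype (-0.85 ± 0.37, SE). The groups did not overlap for either gene, nor for gst-23, which is dim and read 3.77, 3.48 and 3.28 in mutants, against 4.14, 4.05 and 3.86 in wildtype (-0.51 ± 0.27, SE). With gst-27 these were the 4 members whose mutant arrays all lay below the wildtype arrays, 10% of members, where 4.28% of all probe sets did so. Gst-13 had the deepest difference after gst-27. It read 7.77, 7.70 and 7.10 in mutants, against 9.29, 9.60 and 7.21 in wildtype, a difference of -1.18 ± 0.60 (SE), carried by arrays 1 and 2 (-1.52 and -1.90), while the arrays numbered 3 differed by -0.11. Gst-36 was similar, at 9.45, 9.28 and 8.39 in mutants, against 10.33, 10.31 and 8.83 in wildtype (-0.79 ± 0.49, SE).

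On the arrays numbered 1 and 2 alone, 11 members passed at 4 µM, all lower in mutants (27.5% of members, 7.78% of probe sets), and 0 passed higher (5.18% of probe sets). Sperm, yolk, oocyte, intestinal, neuronal and muscle genes were called lower on these same arrays, as given above. The 11 gst members were gst-13, gst-28, gst-27, gst-32, gst-33, gst-42, gst-26, gst-22, gst-36, gst-1 and gst-7, with differences from -1.71 for gst-13 to -0.87 for gst-7. Among them gst-42 is a zeta class enzyme with the maleylacetoacetate isomerase activity of tyrosine breakdown, and gst-1 is a relative of the mammalian pi class. Gst-42 read 9.26, 9.59 and 8.04 in mutants, against 10.46, 10.58 and 8.48 in wildtype, and its difference was -1.09 on arrays 1 and 2 (adjusted p 0.0195 by limma) and -0.44 on the pair numbered 3. Gst-1 read 10.61, 10.79 and 10.66 in mutants, against 11.64, 11.53 and 10.13 in wildtype, and differed by -0.88 on arrays 1 and 2 (adjusted p 0.0235) and by 0.53, the other way, on array 3. Over all 3 numbers, 17 of 40 members were lower in mutants in every same-numbered pair, against 15% of probe sets, and 2, gst-2 and gst-44, were higher in every pair, against 14.6%.

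**Figure D2:**
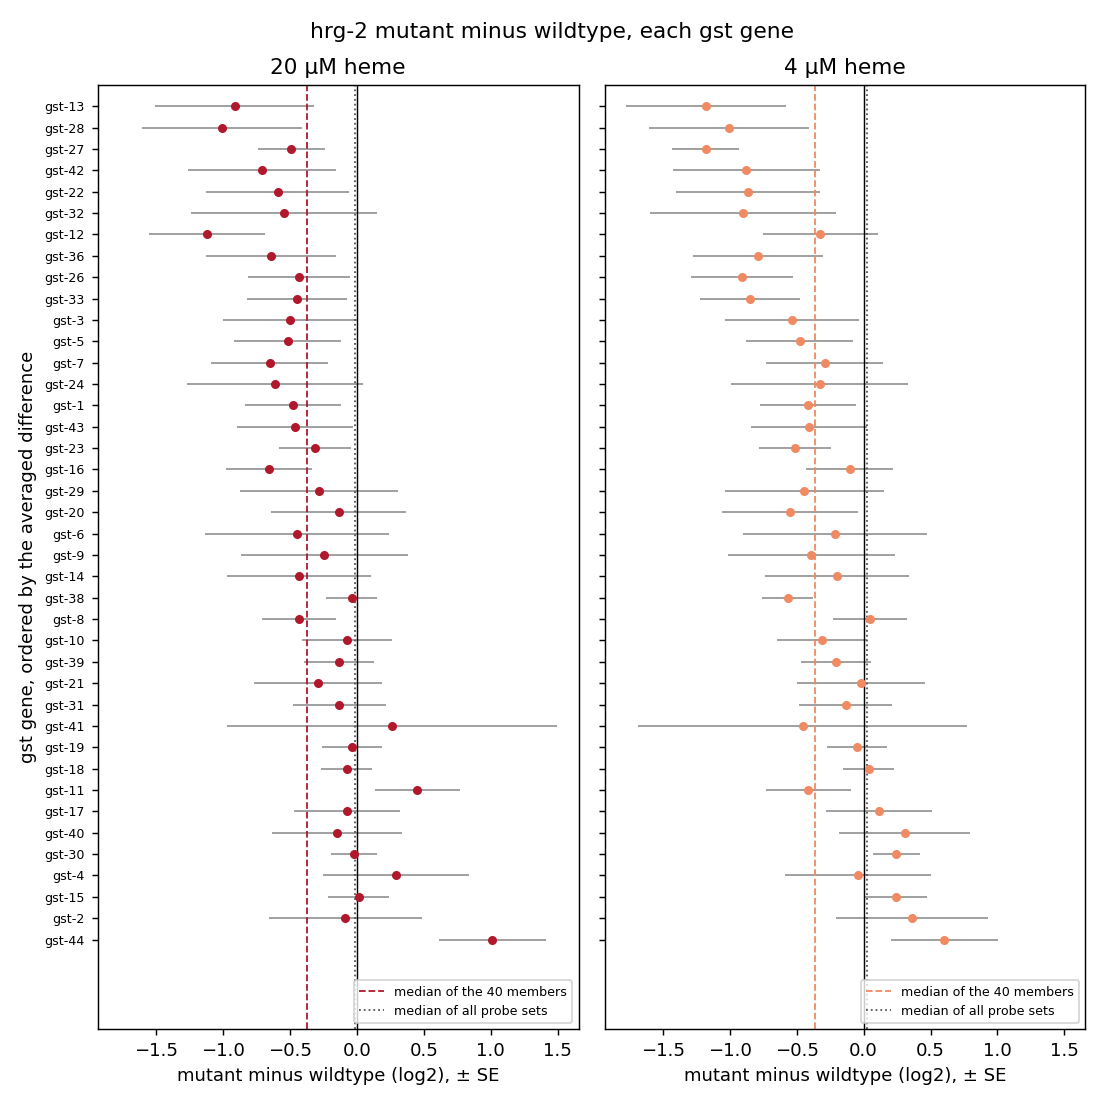
Mutant minus wildtype difference (log2, points, with SE as bars) of each of the 40 gst genes at 20 µM heme on the left and 4 µM heme on the right, with genes ordered by the difference averaged over both heme levels. Most points lie left of 0, the member medians (dashed, -0.37 at 20 µM and -0.36 at 4 µM) lie left of the medians of all probe sets (dotted), and gst-44 at the bottom lies right of 0 at both levels.

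At 20 µM heme the family leaned the same way, again with 0 members past the threshold by limma (0.00443% of probe sets). The difference was negative for 35 of 40 members (52% of probe sets) and positive for 5 (48%), with a median of -0.37, against -0.01 for all probe sets. At an unadjusted p under 0.05 there was 1 lower member, gst-12 (0.962% of probe sets), and 1 higher, gst-44 (0.718%), and with the block 3 were lower (3.38%) and 1 higher (3.11%). Gst-12 read 4.39, 4.22 and 4.70 in hrg-2 mutants at 20 µM, against 6.13, 5.90 and 4.64 in wildtype at 20 µM. Arrays 1 and 2 were lower in mutants by more than 1 unit and the arrays numbered 3 were level, and the difference was -1.12 ± 0.43 (SE), with an unadjusted p of 0.0264 and an adjusted p of 1. Gst-16, from the same run on chromosome II, read 4.75, 5.09 and 5.78 in mutants, against 6.04, 6.13 and 5.42 in wildtype (-0.66 ± 0.32, SE). On array 3 its order turned, with the mutant above wildtype by 0.36.

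Gst-27, gst-28 and gst-13 lay lower in mutants at 20 µM as they did at 4 µM, with smaller or similar differences. Gst-27 read 11.53, 11.54 and 11.75 in mutants, against 12.28, 12.30 and 11.70 in wildtype, a difference of -0.49 ± 0.25 (SE). Mutant array 3 lay just above wildtype array 3, so the groups overlapped. Gst-28 read 5.05, 5.81 and 6.04 in mutants, against 7.04, 7.27 and 5.61 in wildtype (-1.01 ± 0.60, SE). Gst-13 read 7.56, 7.79 and 7.85 in mutants, against 9.08, 9.21 and 7.64 in wildtype (-0.91 ± 0.60, SE). For both genes wildtype arrays 1 and 2 stood clear of every mutant array and wildtype array 3 did not. Gst-7 read 10.04, 10.51 and 10.46 in mutants, against 11.25, 11.35 and 10.37 in wildtype (-0.65 ± 0.44, SE), and its neighbour gst-8 read 4.67, 4.84 and 4.96, against 5.44, 5.69 and 4.63 (-0.43 ± 0.28, SE). Both followed the same order, lower in mutants on arrays 1 and 2 and higher on array 3. The only member whose mutant arrays all lay below the wildtype arrays at 20 µM was gst-42 (3.69% of probe sets did so, and 3.03% lay wholly higher, with 0 members), at 9.21, 9.65 and 9.49 in mutants, against 10.26, 10.43 and 9.78 in wildtype (-0.71 ± 0.55, SE). Gst-42 is given here and at 4 µM after its values were seen, as are gst-1, gst-9 and the other genes counted on arrays 1 and 2.

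Restricted to arrays 1 and 2, the data at 20 µM placed 36 members lower in mutants and 4 higher (53.6% and 46.4% of probe sets). Among them 4 members passed lower (10% of members, 0.648% of probe sets) and 0 higher (0.572% of probe sets), namely gst-28 (-1.72, adjusted p 0.0328 by limma), gst-12 (-1.71, 0.00893), gst-13 (-1.47, 0.0159) and gst-36 (-1.07, 0.0429). The pair numbered 3 pointed elsewhere for the family as a whole. The median member differed by -0.72 on array 1, -0.49 on array 2 and 0.19 on array 3 at 20 µM, and by -0.51, -0.49 and -0.14 at 4 µM. Over all probe sets these medians lay between -0.07 and 0.07. Only 8 members were lower in every same-numbered pair at 20 µM (20% of members, 15.6% of probe sets), and 1, gst-44, was higher in every pair (13.5%). Among the tissue lists at 20 µM, the mutants lay at medians of 0.56 over the sperm genes (1 of 34 lower), 0.12 over the oocyte and eggshell genes (3 of 11 lower), -2.39 over the yolk genes (4 of 4 lower), -0.28 over the intestinal genes (9 of 11 lower), 0.14 over the hypodermal genes (4 of 11 lower), -0.13 over the body muscle genes (8 of 9 lower) and -0.22 over the neuronal genes (7 of 10 lower), with 0 called over all arrays. The fit to arrays 1 and 2 called 2 of 4 yolk genes (median -3.34) and 1 of 11 hypodermal genes (0.037) lower and 0 genes of the other lists. Their part in the family's values was not tested.

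**Figure D3:**
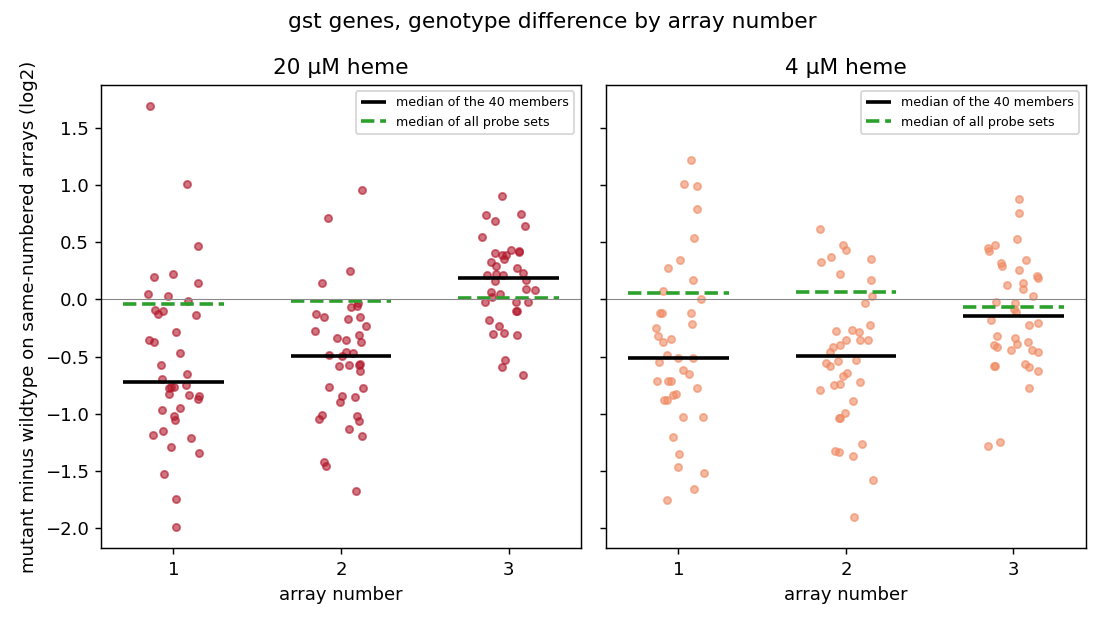
Mutant minus wildtype difference (log2) between arrays of the same number, with 1 point for each of the 40 gst genes, at 20 µM heme on the left and 4 µM heme on the right (black bar, median of the members; green dashed bar, median of all probe sets). The member medians lie between -0.72 and -0.49 for numbers 1 and 2 and at 0.19 (20 µM) and -0.14 (4 µM) for number 3.

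Averaged over both heme levels, the mutant lay lower for 32 of 40 members (47.2% of probe sets) and higher for 8 (52.8%), with a median of -0.34, against 0.02 for all probe sets. In the comparisons at 4 and at 20 µM, 29 members were lower in mutants in both, where 30.4% of probe sets were. These comparisons use different arrays but cannot be taken as independent. Deviations of same-numbered arrays correlated between the heme levels (r 0.517, 0.789 and 0.817 in wildtype, 0.255, 0.636 and 0.609 in mutants). By limma 0 members passed (0.00887% of probe sets), also with the block. At an unadjusted p under 0.05, 7 were lower (17.5% of members, 4.22% of probe sets) and 1 was higher (1.96%). With the block 15 were lower (37.5%, against 8.73%) and 1 higher (2.5%, against 4.98%). The count of 7 lower lay between 1 and 14 with single arrays left out, and the counts of 4 at 4 µM and 1 at 20 µM lay between 1 and 13 and between 0 and 8. The highest counts came without array 3 of wildtype, at 4 µM for the averaged comparison and that at 4 µM, and at 20 µM for that at 20 µM. Shares of all probe sets with single arrays left out are not given here, so these counts have no background beside them. The 7 were gst-27 (-0.83 ± 0.18, SE, adjusted p 0.687), gst-13 (-1.04), gst-28 (-1.01), gst-12 (-0.72), gst-26 (-0.67), gst-33 (-0.65) and gst-38 (-0.30). With only arrays 1 and 2, 16 members passed lower (40%, against 8.02% of probe sets) and 1 higher (5.26%). Those lower ran from -1.69 for gst-28 to -0.60 for gst-20 and included gst-5, whose enzyme acts on 4-hydroxynonenal, at -0.80. The tissue lists averaged over heme had medians of -0.032 for sperm (19 of 34 lower), 0.30 for oocyte and eggshell (1 of 11 lower), -1.92 for yolk (4 of 4 lower), -0.24 for intestine (9 of 11 lower), -0.03 for hypodermis (6 of 11 lower), -0.23 for body muscle (9 of 9 lower) and -0.11 for neurons (6 of 10 lower), with 0 called. The fit to arrays 1 and 2 called lower 4 yolk, 3 oocyte and eggshell, 3 neuronal, 2 intestinal, 1 body muscle and 1 hypodermal gene, and 3 sperm genes higher. Their part in the averaged values of the family was not tested.

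Gst-44 lay higher in mutants at both heme levels. It read 5.78, 4.98 and 5.10 in hrg-2 mutants at 4 µM, against 4.79, 4.61 and 4.65 in wildtype at 4 µM, with every mutant array above every wildtype array, the only member placed so (4.84% of probe sets). At 20 µM it read 6.31, 5.62 and 4.52 in mutants, against 4.63, 4.66 and 4.13 in wildtype. Here mutant arrays 1 and 2 stood high and mutant array 3 lay within the wildtype range. The differences were 0.60 ± 0.40 (SE) at 4 µM, 1.01 ± 0.40 (SE) at 20 µM and 0.81 ± 0.28 (SE) averaged, a level 1.75-fold higher, with an adjusted p of 0.784 by limma. It was higher in mutants in 6 of 6 same-numbered pairs, and on arrays 1 and 2 alone the averaged difference of 1.00 passed (adjusted p 0.0227). The only other member higher at both heme levels was gst-15, at 0.24 at 4 µM and 0.013 at 20 µM.

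**Figure D4:**
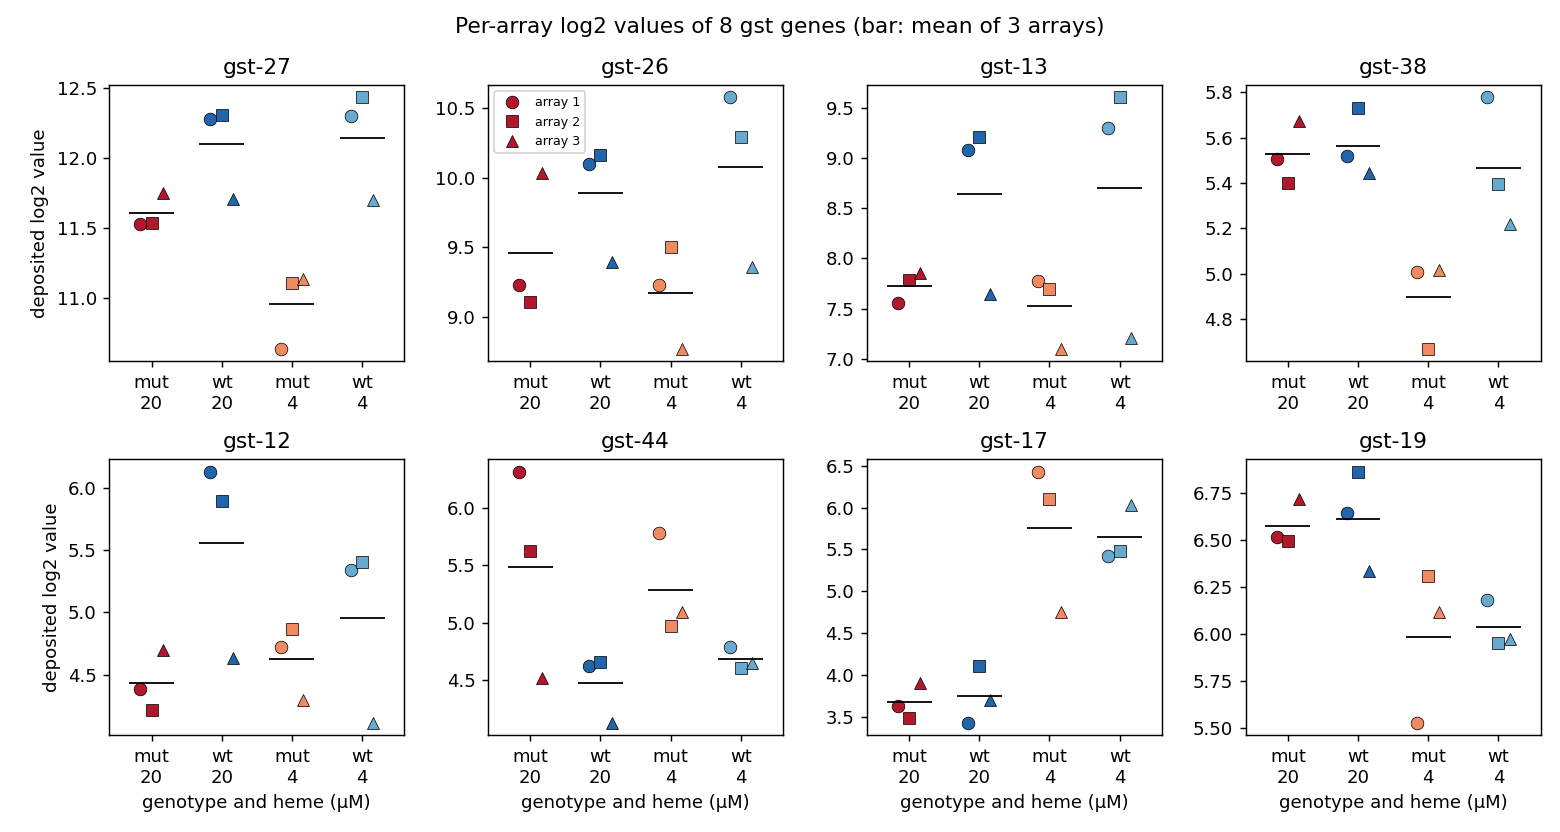
Deposited log2 values of 8 gst genes on each array (circle, square and triangle for arrays 1, 2 and 3; bar, mean of the 3 arrays), with mutants (mut) left of wildtype (wt) at 20 µM and then at 4 µM heme. Gst-27 and gst-38 at 4 µM show mutant arrays below all wildtype arrays, gst-13 and gst-26 split by array number, gst-44 lies higher in mutants, and gst-17 and gst-19 separate by heme level.

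Members were also compared by brightness and by position. Of the 24 members brighter than the median probe set, 23 were lower in mutants at 4 µM, with a median of -0.45, and of the 16 dimmer ones 9 were, with a median of -0.06. All probe sets on the same sides of that level had medians of -0.09 and 0.12. At 20 µM the counts were 22 of 24, with a median of -0.47, and 13 of 16, with a median of -0.11. All probe sets on those sides had medians of -0.04 and 0.008 at 20 µM. Over all probe sets, bright and dim together, 46.9% were lower at 4 µM and 52% at 20 µM. The shares lower on each side of that level are not given here. Among the neighbours, the 7 measured genes of the gst-26 to gst-32 run were all lower in mutants at both heme levels, with medians of -0.90 at 4 µM and -0.43 at 20 µM. With only arrays 1 and 2, 4 of these 7 passed lower at 4 µM, where 7.78% of all probe sets did. The 9 genes of the gst-20 to gst-18 run had medians of -0.10 at 4 µM (6 of 9 lower) and -0.14 at 20 µM (8 of 9 lower). The gst-3, gst-2 and gst-4 neighbours had medians of -0.04 and -0.09. Whether bright and dim members differ, or the runs differ from each other, was not tested.

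For no member did the genotype difference change between the heme levels past the threshold. The difference between the genotype effects (20 µM minus 4 µM) had 0 calls among the members by limma, where 0% of probe sets were called, and 0 members had an unadjusted p under 0.05 (0.723% of probe sets higher and 0.927% lower). With the block 1 did, gst-11. The members of smallest p were gst-27 (0.69 ± 0.35, SE), gst-38 (0.53 ± 0.27, SE), gst-11 (0.86 ± 0.45, SE), gst-12 (-0.80 ± 0.61, SE) and gst-8 (-0.48 ± 0.39, SE), with unadjusted p from 0.079 to 0.248. For gst-38 the difference between genotypes was -0.57 at 4 µM and -0.039 at 20 µM. It read 5.51, 5.40 and 5.67 in mutants at 20 µM, against 5.52, 5.73 and 5.44 in wildtype at 20 µM. For gst-11 it was -0.41 at 4 µM and 0.45 at 20 µM, where mutant array 1 was high, in readings of 4.75, 3.73 and 3.62 in mutants, against 3.74, 3.79 and 3.21 in wildtype. The interval of the difference for gst-27 ran from -0.10 to 1.48 (95%).

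The heme comparisons gave 1 member that stood out, gst-17, which lay about 4-fold lower with 20 µM than with 4 µM heme in both genotypes. In hrg-2 mutants it read 3.63, 3.49 and 3.91 at 20 µM, against 6.43, 6.10 and 4.75 at 4 µM. In wildtype it read 3.43, 4.11 and 3.70 at 20 µM, against 5.42, 5.48 and 6.03 at 4 µM. All 6 arrays at 20 µM lay below all 6 arrays at 4 µM, which held for 1 member and for 0.2% of probe sets. The difference was -2.08 ± 0.39 (SE) in mutants, 4.24-fold, with an unadjusted p of 0.000326 and an adjusted p of 0.334, and -1.90 ± 0.39 (SE) in wildtype, 3.73-fold, with an unadjusted p of 0.000661 and an adjusted p of 1 by limma. Averaged over both genotypes, a comparison added after the data were seen, the difference of -1.99 ± 0.28 (SE) passed with an adjusted p of 0.0444 (0.0341 with the block), as did 0.0665% of probe sets in that direction. Leaving out a single array ended that call for 11 of the 12 arrays (adjusted p 0.0796 to 0.184 by limma), and without array 3 of mutants at 4 µM, whose reading of 4.75 was the lowest at 4 µM, the adjusted p was 0.00104. Without the arrays numbered 3, gst-17 passed in both genotypes, at -2.71 in mutants (adjusted p 0.00239) and -1.68 in wildtype (0.0476). In that fit 6.59% of probe sets passed lower in mutants and 0.124% in wildtype, against 2.5% of members in each. At 20 µM its readings lay among the dimmest of the family, and a limit on the fold from the dimness of the probe set was not tested. Gst-18, whose annotated body overlaps that of gst-17, differed by -0.23 in mutants and -0.11 in wildtype. Between genotypes gst-17 differed by 0.11 at 4 µM and -0.073 at 20 µM, with intervals (95%) of -0.76 to 0.99 and -0.95 to 0.80.

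Gst-19, the direct neighbour of gst-17 in that run, lay on the other side. A recombinant form of its protein binds heme in vitro. In hrg-2 mutants it read 6.52, 6.49 and 6.72 at 20 µM, against 5.53, 6.31 and 6.12 at 4 µM. In wildtype it read 6.64, 6.87 and 6.33 at 20 µM, against 6.18, 5.95 and 5.97 at 4 µM. All 6 arrays at 20 µM lay above all 6 at 4 µM, as for 0.0887% of probe sets, though the nearest arrays of the heme levels read 6.33 at 20 µM and 6.31 at 4 µM. The differences were 0.59 ± 0.22 (SE) in mutants and 0.58 ± 0.22 (SE) in wildtype, with unadjusted p of 0.0246 and 0.0275 and adjusted p of 0.799 and 1 by limma. Averaged over genotypes the difference was 0.58 ± 0.16 (SE), with an adjusted p of 0.762. Between genotypes it differed by -0.052 at 4 µM and -0.037 at 20 µM, and the sign at 4 µM turned with centring on the array median (0.083) and with repeated quantile normalization (0.069).

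Over the rest of the family the heme differences had no common sign. In hrg-2 mutants 0 members passed by limma (0.0399% of probe sets), 13 of 40 were lower at 20 µM (56% of probe sets) and the median was 0.19, against -0.05 for all probe sets. Without the arrays numbered 3, 20 of 40 were lower and the median was 0.00056, so that median rests on the arrays numbered 3. Without array 3 of mutants at 4 µM 23 members were lower, and without array 2 of mutants at 20 µM 20 were. At an unadjusted p under 0.05, 3 members were higher in mutants at 20 µM (2.95% of probe sets), and 1, gst-17, was lower (3.21%). They were gst-19, gst-38 and gst-27. Gst-38 read 5.51, 5.40 and 5.67 at 20 µM, against 5.01, 4.67 and 5.01 at 4 µM (0.63 ± 0.19, SE), and gst-27 read 11.53, 11.54 and 11.75 at 20 µM, against 10.64, 11.11 and 11.13 at 4 µM (0.64 ± 0.25, SE). Neither gene's groups overlapped, nor did those of gst-19 and gst-1, so 4 members lay wholly higher at 20 µM (4.87% of probe sets). The _s_at probe set of gst-9 read 6.88, 7.22 and 5.07 at 20 µM, against 6.02, 5.88 and 4.98 at 4 µM, and passed, higher at 20 µM, on arrays 1 and 2 alone (adjusted p 0.0139 by limma; 2.5% of members, 7.46% of probe sets) and not over all arrays (adjusted p 0.87).

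In wildtype 0 members passed by limma (0.0355% of probe sets), 19 of 40 were lower at 20 µM (50.9%) and the median was 0.04. Single arrays decide both values: without array 3 of wildtype at 4 µM 31 were lower, with a median of -0.27, and without array 3 of wildtype at 20 µM 8 were, with a median of 0.39. At an unadjusted p under 0.05, 1 member, gst-17, was lower (0.905% of probe sets) and 1, gst-19, was higher (0.488%). The next by p were gst-8 (0.48 ± 0.28, SE), gst-11 (-0.53 ± 0.32, SE) and gst-16 (0.49 ± 0.32, SE), whose groups overlapped. For gst-27 the wildtype difference was -0.046 ± 0.25 (SE) and for gst-38 it was 0.10 ± 0.19 (SE). In the heme comparisons in mutants and in wildtype, 17 members were higher at 20 µM in both (26.3% of probe sets) and 9 lower in both (33.2%). These comparisons use different arrays but cannot be taken as independent. Deviations of same-numbered arrays correlated between the genotypes (r 0.489, 0.654 and 0.704 at 4 µM, 0.426, 0.628 and 0.642 at 20 µM). Among the tissue lists the sperm genes lay at a median of 1.40 in mutants (2 of 34 lower at 20 µM) and 0.15 in wildtype (5 of 34 lower), and the yolk genes at 0.14 in mutants and 1.06 in wildtype, with 0 called over all arrays. The fit to arrays 1 and 2 called 29 of 34 sperm genes higher in mutants at 20 µM (median 2.22), with 1 oocyte and eggshell gene and 1 hypodermal gene higher and 2 intestinal genes lower, and 0 genes of the tissue lists in wildtype. Their part in the heme values of the family was not tested.

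**Figure D5:**
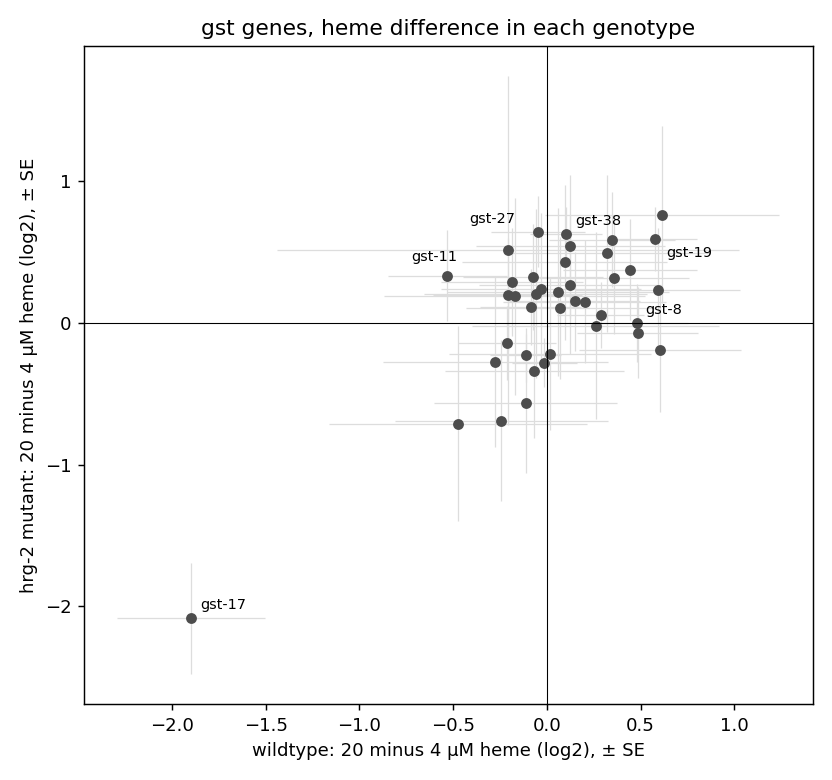
Difference between 20 and 4 µM heme (log2, with SE as bars) of each of the 40 gst genes in hrg-2 mutants (vertical axis) against wildtype (horizontal axis). Gst-17 lies alone at -2.08 in mutants and -1.90 in wildtype, gst-19 at 0.59 and 0.58, and the remaining points lie within 0.8 of 0 on both axes.

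Gst-4, whose promoter drives the reporter most used for oxidative and electrophile stress in C. elegans, showed no difference past its spread over all arrays. At 4 µM it read 7.47, 7.44 and 6.78 in hrg-2 mutants, against 7.82, 7.96 and 6.03 in wildtype, a difference of -0.041 ± 0.55 (SE) with an interval (95%) of -1.25 to 1.17. At 20 µM it read 7.88, 8.39 and 6.71 in mutants, against 7.41, 7.68 and 7.01 in wildtype, a difference of 0.29 ± 0.55 (SE) with an interval of -0.92 to 1.50. On arrays 1 and 2 alone gst-4 differed by -0.44 ± 0.22 (SE) at 4 µM and by 0.59 ± 0.22 (SE) at 20 µM. The adjusted p were 0.208 and 0.216 by limma. Wildtype array 3 at 4 µM was the lowest of the 12, and the sign at 4 µM turned with centring (0.094) and with repeated quantile normalization (0.057). With heme gst-4 differed by 0.43 ± 0.55 (SE) in mutants and 0.095 ± 0.55 (SE) in wildtype. On arrays 1 and 2 alone these differences were 0.68 and -0.35. Gst-10, whose enzyme conjugates 4-hydroxynonenal, read 9.24, 9.25 and 8.12 in mutants at 4 µM, against 8.97, 9.22 and 9.36 in wildtype at 4 µM (-0.31 ± 0.34, SE). Array 3 of the mutants alone was low, and on arrays 1 and 2 the difference was 0.15. At 20 µM it read 9.39, 9.18 and 9.79 in mutants, against 9.34, 9.22 and 10.02 in wildtype (-0.071 ± 0.34, SE). Between 20 and 4 µM heme gst-10 differed by 0.59 ± 0.34 (SE) in mutants and 0.35 ± 0.34 (SE) in wildtype. On arrays 1 and 2 alone these differences were 0.045 and 0.19, and on the pair numbered 3 they were 1.68 and 0.66. Another probe set shared by gst-10 and F56A4.3, left out by the rule, gave -0.47 at 4 µM and -0.23 at 20 µM between genotypes. Between heme levels that probe set gave 0.92 in mutants and 0.68 in wildtype. Gst-30, another SKN-1 target, is the dimmest member and differed by 0.25 at 4 µM and -0.024 at 20 µM.

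Genes that make, recycle or use glutathione outside the gst family had no common sign between the genotypes. Of 33 measured genes of 36 listed, which include the synthesis enzymes gcs-1 and gss-1, glutathione reductase gsr-1, glutaredoxins, glutathione peroxidases and mrp conjugate exporters, 17 were lower in hrg-2 mutants at 4 µM, with a median of -0.03, and 20 at 20 µM, with a median of -0.12. By limma 0 passed in any of the 6 comparisons. At an unadjusted p under 0.05, 3 were lower and 1 higher at 4 µM (3.64% and 2.47% of probe sets), and 0 at 20 µM. Those of smallest p at 4 µM were mrp-4 (0.68 ± 0.19), an ABC transporter, C53D5.5 (-0.95 ± 0.27), the glutaredoxin glrx-21 (-0.50 ± 0.18) and thioredoxin reductase trxr-1 (-0.68 ± 0.28), with adjusted p of 0.791. At 20 µM they were glrx-21 (-0.37 ± 0.18), gpx-4 (-0.40 ± 0.27), gpx-8 (0.40 ± 0.28) and djr-1.1 (0.25 ± 0.20), and averaged they were glrx-21 (-0.43 ± 0.13), mrp-4 (0.42 ± 0.14), gpx-6 (-0.63 ± 0.26) and trxr-1 (-0.40 ± 0.20), errors being SE. The fit to arrays 1 and 2 called 4 lower and 1 higher at 4 µM (7.78% and 5.18% of probe sets), 0 at 20 µM, and 4 lower averaged (8.02%). Of 19 measured regulators of SKN-1 or of stress genes, of 20 listed, 7 were lower in mutants at 4 µM, with a median of 0.02, and 13 at 20 µM, with a median of -0.15. By limma 0 passed in any comparison, and 0 had an unadjusted p under 0.05. The fit to arrays 1 and 2 called 0 of the 19 between genotypes at either heme level, 1 lower averaged, the kinase gene sgk-1 (-0.53, adjusted p 0.0295 by limma), and 1 lower with heme in mutants, the kinase gene gsk-3 (-0.81, 0.0426).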

How the data were processed

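Each deposited value is the log2 signal of a probe set on an array. The authors made these log2 values by RMA in Partek 6.5, per the submitters' processing notes. Their RMA settings and any filter are not stated there. Of 22625 probe sets, 77 controls were set aside and 22548 kept. Genes were named from the platform annotation (20766 probe sets with 1 symbol, 887 with several, 895 with none), and all 40 members matched RefSeq WBcel235. The model was fitted with limma 3.58.1 (lmFit, eBayes, two-sided) in R 4.3.3 with 4 group means over 12 arrays, 8 residual and 2.24 prior degrees of freedom, and Benjamini-Hochberg adjustment over the 22548 probe sets at a threshold of 0.05. Every difference, SE, p and interval not said to come from arrays 1 and 2 or from a block is from that fit. The code of the fit was run on simulated data with small independent noise and no shift by array number. That run does not show how the fit behaves on these arrays.

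The named members are those of smallest p in each comparison (8 for genotype, 5 for heme and for the difference between genotype effects), the 4 brightest and the 4 dimmest, and gst-4, gst-10 and gst-19. The members, the rule and the lists were chosen with earlier results of these data known. Nothing in the labels ties the 3 arrays of a group to separate cultures. The p-values therefore reflect the spread of these samples alone, which could be technical, and the number of arrays limits precision. Array numbers come from the titles. Deviations from group means correlated in all 12 pairs of same-numbered arrays from groups compared (r 0.255 to 0.817). They also did in the 6 pairs of same-numbered arrays from the remaining groups (0.101 to 0.702), so the number served as a block in an alternative fit. Such correlations could also arise if only the arrays numbered 3 had shifted. Figures were drawn with matplotlib 3.10.9.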

Additional observations from a re-analysis of the deposited data

How the results depend on the processing

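With 3 arrays in a group and a spread within groups that follows the array number, the fit over all arrays called 0 members in each of the 6 comparisons. On the arrays numbered 1 and 2 only, 11 members were called for genotype at 4 µM, 4 at 20 µM and 17 averaged, 2 for heme in hrg-2 mutants (1 lower and 1 higher, 2.5% of members each, against 6.59% and 7.46% of probe sets), 1 lower for heme in wildtype (0.124% of probe sets) and 0 for the difference between genotype effects. With array weights, whose estimation stopped before it converged, the counts were 1 lower for genotype at 20 µM (0.142% of probe sets), 7 averaged (6 lower and 1 higher, against 2.49% and 1.37% of probe sets), 2 for heme in mutants (1 lower and 1 higher, against 2.83% and 1.63%) and 0 in the other comparisons. With 1 array left out they were 0 to 0 for the genotype comparisons and their difference, and 0 to 1 for heme in mutants and in wildtype, the 1 being gst-17 without array 3 of mutants at 4 µM (differences -2.59 and -1.90, adjusted p 0.00895 and 0.0458 by limma). The replicate block, the fit of the compared groups alone, median centring, repeated quantile normalization, a trended prior, the filter to brighter probe sets and the other choices of probe set for gst-40 gave 0 calls throughout, so the replicate block changed no call. The family median over all alternatives but single arrays left out stayed negative for genotype, from -0.48 to -0.23 at 4 µM, -0.55 to -0.37 at 20 µM and -0.46 to -0.27 averaged. With single arrays left out it ran from -0.74 to -0.09, -0.69 to -0.13 and -0.55 to -0.17. The medians for heme turned sign with single arrays left out (-0.035 to 0.30 in mutants, -0.27 to 0.39 in wildtype), as did that of the difference between genotype effects (-0.27 to 0.42, and -0.11 to 0.15 over the alternatives). Members lower at an unadjusted p under 0.05 numbered 1 to 17 over the alternatives for genotype at 4 µM, 0 to 20 at 20 µM and 2 to 23 averaged. The share of all probe sets at that p moved too, from 3.64% over all arrays to 7.22% with the block at 4 µM. At 20 µM it moved from 0.962% to 3.38%, and averaged from 4.22% to 8.73%. Shares under the other settings are not given here, so the ends of these ranges have no background beside them.

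Over the values of named members in the 6 comparisons, 313 kept direction and side of the threshold under the alternatives, 28 came to pass it and 9 turned sign, and with 1 array left out 561 kept both, 2 came to pass and 13 turned sign. Those that turned sign belonged to gst-4, gst-10 and gst-19. The gst-17 call for heme averaged over genotypes was lost with 11 of the 12 arrays left out in turn and kept under the 6 other alternatives. For genotype at 4 µM, gst-4 was 0.094 with centring and 0.057 with quantile normalization, gst-19 was 0.083, 0.069 and, with array weights, 0.041, and gst-10 was 0.15 on arrays 1 and 2 only, where it was 0.0088 at 20 µM. For heme in wildtype gst-4 was -0.35 on arrays 1 and 2 only and -0.20 with array weights. With 1 array left out, genotype at 4 µM ran from -0.66 to 0.30 for gst-4, -0.50 to 0.063 for gst-10 and -0.21 to 0.18 for gst-19, genotype at 20 µM from -0.076 to 0.77, -0.24 to 0.18 and -0.18 to 0.088, and heme in wildtype from -0.53 to 0.44 for gst-4. The causes were not tested.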
